A study of Mus musculus with 12 samples.

Results

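Immediate early genes are switched on within minutes of a stimulus, from signaling proteins and transcription factors that the cell already holds, and their mRNAs are usually short-lived. Growth factors, calcium entry through active synapses, light, cellular stress and tissue injury are among the stimuli known to induce them, and in the retina they respond in neurons, Müller glia, microglia and vascular cells. Many encode transcription factors of the AP-1, EGR, NR4A and KLF families, others encode enzymes and RNA-binding proteins that end the same signals, and a further set acts at synapses or on prostaglandin synthesis.

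The 39 genes described here were picked by symbol from those families and from other rapid-response genes. All 39 were found among the 50559 genes of the deposited count table, where 35088 genes were counted in at least 1 library. All 39 also passed the filter on low counts in each comparison. They comprised 9 AP-1 and related leucine zipper genes, 4 Egr genes, 3 Nr4a genes, 4 Klf genes, 4 other transcription factors, 9 regulators and 6 effectors.

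All animals were WT mice of strain C57BL6/J that received 30 µg of antibody on day 1 and whose retinas were taken on day 28. The antibody was either an IgG isotype control or APB5, a rat monoclonal antibody against PDGFRβ, by which pericytes respond to PDGFB made by endothelium. In IgG+Mino and APB5+Mino the mice also had daily intraperitoneal injections of minocycline, a tetracycline antibiotic that limits microglia activation, from day 5 to day 27 at 45 mg/kg. IgG and APB5 were the groups without minocycline, and each of the 4 groups had 3 RNA-Seq libraries. A receptor-blocking antibody given once is not a gene deletion, and how much of the receptor remained blocked at day 28 was not analysed here. The labels do not say whether a library is 1 animal or what a replicate number marks, so that P values measure the spread between these libraries.

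Total counts ranged from 52740545 to 59411044 per library, and values are given as CPM, counts scaled by edgeR to a common total. Summed CPM of 11 retinal marker genes were 39354 to 60956 in 11 libraries and 11118 in APB5 3, the third APB5 library. Summed gliosis markers were 4848 CPM in APB5 3 and 243 to 554 elsewhere, with all 10 highest in APB5 3. The labels give no sex, and the counts of Xist were 47210 or more in IgG 1 to 3, APB5 3 and APB5+Mino 3 and at most 38 in the other 7. Summed counts of Y-linked genes were 1 to 6 in the libraries with high Xist and 9336 to 13390 in those 7. These are the patterns of female and male tissue. Sex as read from these counts therefore separated IgG (female) from IgG+Mino (male) completely. Bulk retinal RNA does not tell fewer cells of a type from less RNA per cell.

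The median level of the 39 genes differed between libraries. Each gene's log2 CPM was set against the mean of its 4 group means. The median over the 39 genes was −0.43, −0.33 and 0.38 in the IgG libraries and −0.25, 0.11 and 0.025 in IgG+Mino. It was 0.65, 0.011 and 1.60 in APB5 and −0.74, −0.65 and −0.87 in APB5+Mino. Over all 21228 genes tested the same median stayed between −0.013 and 0.019, where the scaling of CPM holds it by construction. The 3 APB5+Mino libraries thus lay lowest, APB5 3 highest, and IgG 3 and APB5 1 above the other libraries. APB5 3 was the highest of the 12 libraries for 31 of the 39 genes. Within its own group it was highest for 35 of the 39, where it was highest for 40.1% of all genes. IgG 3 was highest within its own group for 28 of the 39, where it was highest for 42.6% of all genes.

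**Figure D1:**
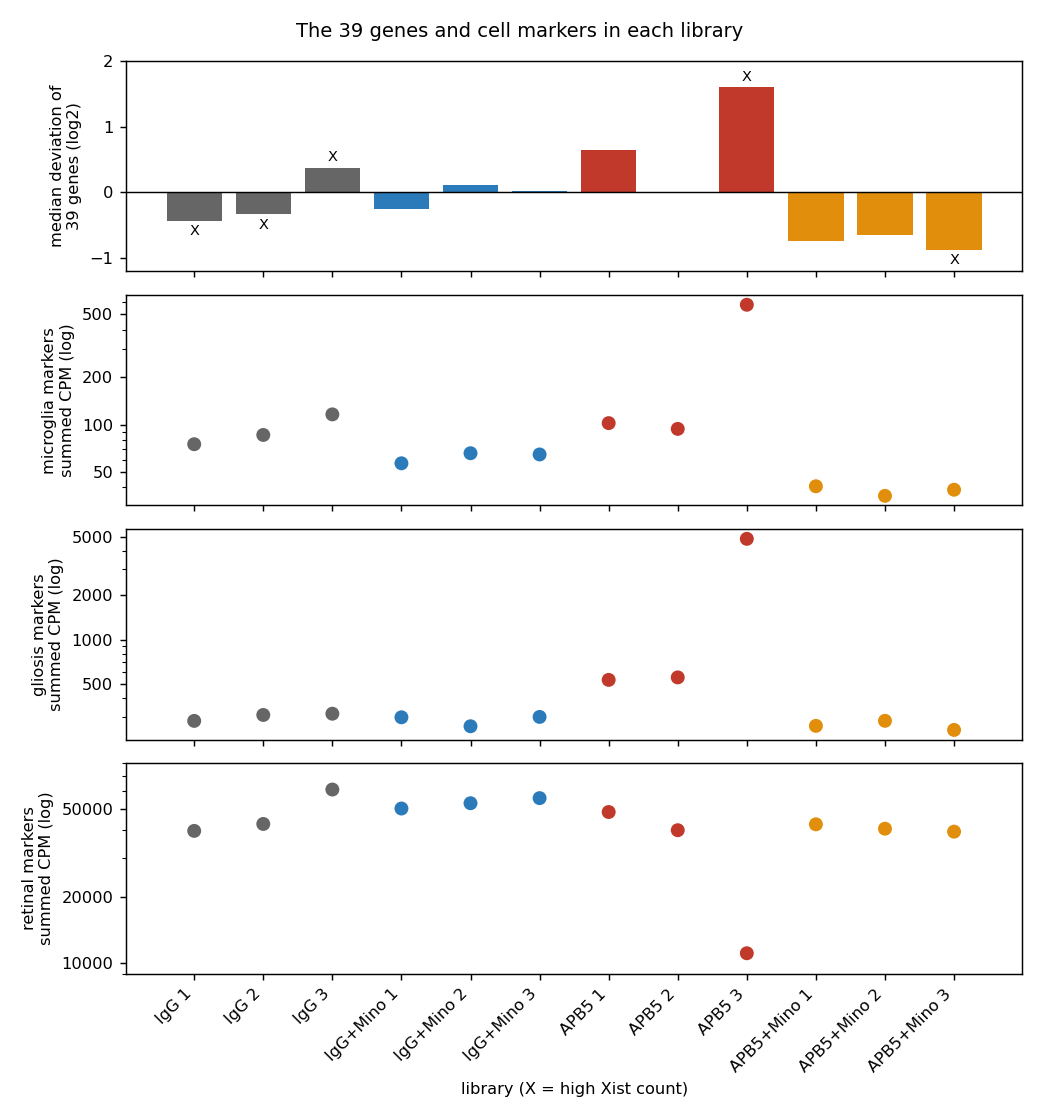
Top: median deviation of the 39 genes in log2 units from the mean of the group means, one bar per library, with X over libraries with a high Xist count. Below, on log axes: summed CPM of microglia, gliosis and retinal markers in the same libraries. The APB5+Mino bars lie at −0.65 to −0.87, and APB5 3 stands at 1.60 with the highest microglia and gliosis sums and the lowest retinal sum.

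Spread within groups followed the same division. The median within-group SD of log2 CPM over the 39 genes was 0.47 in IgG, 0.33 in IgG+Mino and 0.92 in APB5, against 0.23, 0.21 and 0.30 over all genes. In APB5+Mino it was 0.14, and over all genes 0.14 as well. Immediate early genes thus varied more than most genes between replicates in the first 3 groups and about as much as most genes in APB5+Mino. For 24 of the 39 genes all 3 APB5+Mino libraries were below all 9 others, where this held for 8.7% of all genes. The 24 were Fos, Jun, Junb, Jund, Atf3, Maff, Egr1, Egr2, Nr4a1, Klf2, Klf4, Klf10, Csrnp1, Cebpd, Ier2, Ier5, Dusp1, Zfp36, Sik1, Gadd45g, Rhob, Plk2, Plk3 and Ptgs2. None of the 39 was above all 9 others in the 3 APB5+Mino libraries, against 9.78% of all genes.

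**Figure D2:**
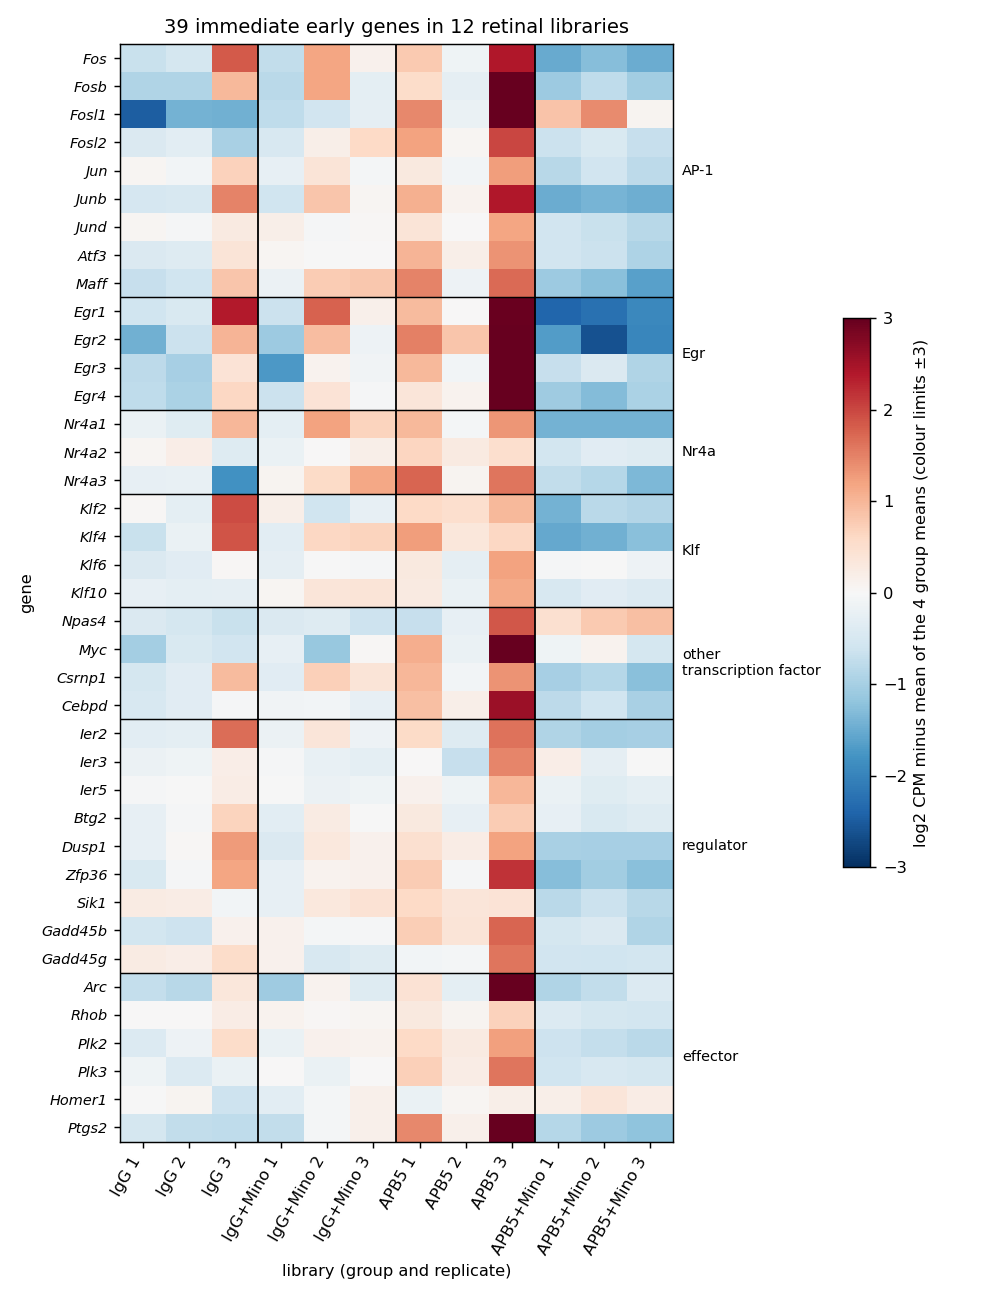
Heat map of the 39 genes (rows, grouped by role) in the 12 libraries (columns), coloured by log2 CPM minus the mean of the 4 group means. Most rows are darkest red in APB5 3 and blue in the 3 APB5+Mino columns, with Npas4, Fosl1 and Homer1 as exceptions on the right.

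The genes lie on 17 chromosomes. Exons of all annotated transcripts, merged where they overlap, form a single block in 8 of the 39 genes. Scaled to the length of their exons, the highest mean levels over the 12 libraries were those of Jund at 149, Egr1 at 58.98 and Fos at 51.8 CPM per kilobase. Ptgs2 at 0.42, Myc at 0.62 and Egr2 at 0.69 CPM per kilobase were the lowest. Exons of 20 of the 39 overlap a gene on the other strand, and whether counting used the strand is not stated. For 5 of them the partner is protein-coding (Ccdc85b for Fosl1, Prdx2 for Junb, Ergic1 for Dusp1, Dynlt4 for Plk3 and Spidr for Cebpd).

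Transcription of many of these genes runs through the CRE, bound by CREB, and the CArG box, bound by serum response factor. Upstream sequence was therefore searched over 500 bases before the canonical start of 21757 protein-coding genes (GRCm39, GENCODE M39), on both strands and with no overlap between matches in the 39 genes. The CRE letters TGACGTCA occurred upstream of 6 of the 39 genes (Jund, Ier2, Btg2, Dusp1, Sik1 and Maff) and of 1.96% of all promoters. A CArG box occurred for 5 (Fos, Fosb, Egr2, Egr3 and Gadd45g) and in 2.76% of all. The AP-1 letters TGACTCA, on either strand, occurred for Csrnp1 alone and in 7.57% of all. These are matches of letters and not tested sites, and a gene without one may be controlled from outside the window. Sequences around 6 matches, in genes whose levels are central to the comparisons, are printed 5′ to 3′ on the gene's strand with the match in capitals.
Fos, CArG box at 303 to 294 bases upstream, chr12:85520315-85520404, plus strand: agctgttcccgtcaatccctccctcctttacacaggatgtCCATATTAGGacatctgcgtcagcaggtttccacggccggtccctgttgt
Egr2, CArG box at 65 to 56 bases upstream, chr10:67373587-67373676, plus strand: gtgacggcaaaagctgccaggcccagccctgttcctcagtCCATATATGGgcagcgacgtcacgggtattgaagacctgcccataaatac
Sik1, CRE at 199 to 192 bases upstream, chr17:32074970-32075057, minus strand: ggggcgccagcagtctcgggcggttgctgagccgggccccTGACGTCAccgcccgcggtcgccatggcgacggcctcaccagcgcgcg
Dusp1, CRE at 96 to 89 bases upstream, chr17:26727542-26727629, minus strand: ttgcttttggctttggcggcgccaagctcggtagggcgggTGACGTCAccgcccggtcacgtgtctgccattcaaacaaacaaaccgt
Maff, CRE at 29 to 22 bases upstream, chr15:79231651-79231719, plus strand: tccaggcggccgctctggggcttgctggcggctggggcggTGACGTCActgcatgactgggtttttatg
Ier2, CRE at 43 to 36 bases upstream, chr8:85389484-85389566, minus strand: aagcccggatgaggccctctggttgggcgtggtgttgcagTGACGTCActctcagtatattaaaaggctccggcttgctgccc

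Fos and Jun proteins pair to form AP-1, the transcription factor most closely tied to rapid responses. Fos was at 51.3, 56.9 and 295 CPM in IgG, 48.9, 185 and 90.2 in IgG+Mino, 140.0, 75.3 and 432 in APB5 and 28.6, 33.6 and 29.3 in APB5+Mino. IgG 3 was 5.76-fold above IgG 1, and all 3 APB5+Mino libraries were below the other 9. Fosb, a Fos paralog, was at 7.75, 7.72 and 28.5 CPM in IgG, 8.25, 32.9 and 11.7 in IgG+Mino, 21.1, 11.9 and 150.0 in APB5 and 6.78, 8.47 and 7.01 in APB5+Mino. Its APB5+Mino libraries overlapped IgG and IgG+Mino, and APB5 3 stood far above the rest. Junb, a Jun family member that also restrains AP-1, was at 41.5, 42.4 and 167 CPM in IgG, 38.9, 104 and 61.2 in IgG+Mino, 124, 63.1 and 314 in APB5 and 20.9, 22.4 and 21.4 in APB5+Mino. The APB5+Mino libraries were again below all others.

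The remaining AP-1 genes shared the low APB5+Mino values with 2 exceptions. Jun was at 88.7, 80.7 and 137 CPM in IgG, 71.7, 111 and 82.3 in IgG+Mino, 105, 80.2 and 204 in APB5 and 47.8, 57.6 and 49.6 in APB5+Mino. Jund, the most constitutive of the Jun genes, was at 241, 227 and 281 CPM in IgG, 264, 225 and 236 in IgG+Mino, 305, 234 and 529 in APB5 and 156, 147 and 131 in APB5+Mino. In both the 3 APB5+Mino libraries were the lowest of the 12. Atf3, a stress-induced leucine zipper repressor, was at 10.7, 11.04 and 18.8 CPM in IgG, 14.95, 14.3 and 14.5 in IgG+Mino, 29.2, 16.3 and 36.8 in APB5 and 9.77, 9.297 and 7.65 in APB5+Mino. Maff, a small Maf protein, was at 5.89, 6.25 and 16.98 CPM in IgG, 8.49, 16.1 and 16.7 in IgG+Mino, 26.97, 8.54 and 31.1 in APB5 and 4.49, 3.95 and 3.06 in APB5+Mino. Both were highest in APB5 3 and APB5 1 and lowest in APB5+Mino. Fosl1 was at 0.175, 0.403 and 0.397 CPM in IgG, 0.652, 0.744 and 0.928 in IgG+Mino, 3.16, 0.986 and 11.6 in APB5 and 2.09, 3.11 and 1.203 in APB5+Mino. This low-abundance Fos relative was higher in every library with APB5, with or without minocycline, than in the 6 without it. Fosl2 was at 21.04, 22.9 and 14.5 CPM in IgG, 20.4, 32.2 and 43.02 in IgG+Mino, 65.8, 30.03 and 114 in APB5 and 18.3, 20.8 and 17.8 in APB5+Mino. Here APB5+Mino overlapped both IgG and IgG+Mino, and every APB5 library was above IgG and APB5+Mino but not above IgG+Mino.

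EGR proteins are zinc finger transcription factors, and Egr1 was the most abundant of the 4 per exon length. Egr1 was at 90.9, 99.4 and 712 CPM in IgG, 88.2, 471 and 154 in IgG+Mino, 267, 139 and 1069 in APB5 and 26.4, 28.9 and 36.2 in APB5+Mino. IgG 3, IgG+Mino 2 and APB5 3 were the high libraries, and the APB5+Mino libraries were lowest. Egr2, needed for Schwann cell and lymphocyte programs elsewhere, was at 0.175, 0.333 and 1.12 CPM in IgG, 0.235, 1.06 and 0.483 in IgG+Mino, 1.61, 0.986 and 22.01 in APB5 and 0.143, 0.0587 and 0.113 in APB5+Mino. The 3 APB5+Mino values rest on 8, 3 and 6 counts. Egr4 was at 1.94, 1.68 and 5.09 CPM in IgG, 2.08, 4.41 and 3.21 in IgG+Mino, 4.25, 3.58 and 61.9 in APB5 and 1.56, 1.31 and 1.69 in APB5+Mino. APB5+Mino overlapped IgG for Egr4 but was below every IgG+Mino library. Egr3, 65.8 CPM in APB5 3, ranged from 0.996 to 6.58 CPM in the other 11 libraries, where every APB5 library was above APB5+Mino and the other groups overlapped.

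NR4A proteins are orphan nuclear receptors. Nr4a1 was at 138, 122 and 314 CPM in IgG, 129, 363 and 249.6 in IgG+Mino, 307, 152 and 395 in APB5 and 59.1, 58.6 and 59.1 in APB5+Mino. The 3 APB5+Mino libraries were nearly equal and below all others. Nr4a2, which dopaminergic neurons need, was at 11.7, 12.8 and 8.46 CPM in IgG, 9.702, 11.2 and 12.6 in IgG+Mino, 17.5, 13.5 and 15.8 in APB5 and 7.64, 8.79 and 8.52 in APB5+Mino. Nr4a3 was at 12.2, 12.2 and 4.08 CPM in IgG, 15.2, 21.6 and 31.98 in IgG+Mino, 48.3, 15.2 and 43.7 in APB5 and 8.63, 7.89 and 5.66 in APB5+Mino. For both, APB5+Mino was below every APB5 and every IgG+Mino library but overlapped IgG, where IgG 3 was the lowest library.

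KLF proteins are zinc finger factors, of which Klf2 and Klf4 are known for endothelial quiescence. Klf2 was at 5.93, 4.69 and 22.4 CPM in IgG, 6.46, 3.82 and 4.83 in IgG+Mino, 8.69, 8.14 and 11.4 in APB5 and 2.15, 3.27 and 3.14 in APB5+Mino. Klf4 was at 2.27, 3.12 and 13.5 CPM in IgG, 2.896, 5.54 and 5.79 in IgG+Mino, 8.68, 4.58 and 5.57 in APB5 and 1.22, 1.31 and 1.504 in APB5+Mino. In both, IgG 3 was the highest library and the 3 APB5+Mino libraries were the lowest. Klf10, a TGF-β-responsive gene, was at 13.7, 13.2 and 13.4 CPM in IgG, 17.02, 21.03 and 21.1 in IgG+Mino, 19.7, 14.1 and 35.7 in APB5 and 11.7, 12.9 and 12.2 in APB5+Mino. Its APB5+Mino libraries were also below all others. Klf6 ranged from 19.6 to 32.3 CPM in 11 libraries and was at 61.1 CPM in APB5 3, with all groups overlapping.

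Npas4 departed from most of the other genes. This transcription factor is induced by calcium entry in active neurons and is not known to respond to growth factors. Npas4 was at 13.7, 12.9 and 11.6 CPM in IgG, 13.7, 14.3 and 12.01 in IgG+Mino, 11.5, 15.5 and 67.2 in APB5 and 25.8, 31.9 and 34.4 in APB5+Mino. All 3 APB5+Mino libraries were above every IgG and IgG+Mino library, which also held for Fosl1 and Homer1. For Npas4 only APB5 3 was higher. Csrnp1, a nuclear factor of the immediate early class, was at 10.8, 12.4 and 30.4 CPM in IgG, 12.3, 25.7 and 20.6 in IgG+Mino, 31.5, 14.7 and 40.1 in APB5 and 7.79, 8.71 and 6.599 in APB5+Mino. Cebpd, which takes part in acute-phase and glial responses, was at 27.3, 29.9 and 37.2 CPM in IgG, 35.03, 36.03 and 31.96 in IgG+Mino, 71.04, 43.04 and 224 in APB5 and 22.1, 25.2 and 19.3 in APB5+Mino. For both, APB5+Mino was the lowest group. Myc was at 0.525, 0.788 and 0.725 CPM in IgG, 0.923, 0.478 and 1.13 in IgG+Mino, 2.404, 0.949 and 9.58 in APB5 and 1.002, 1.19 and 0.752 in APB5+Mino. Its APB5 libraries were above all IgG libraries, and the other groups overlapped.

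**Figure D3:**
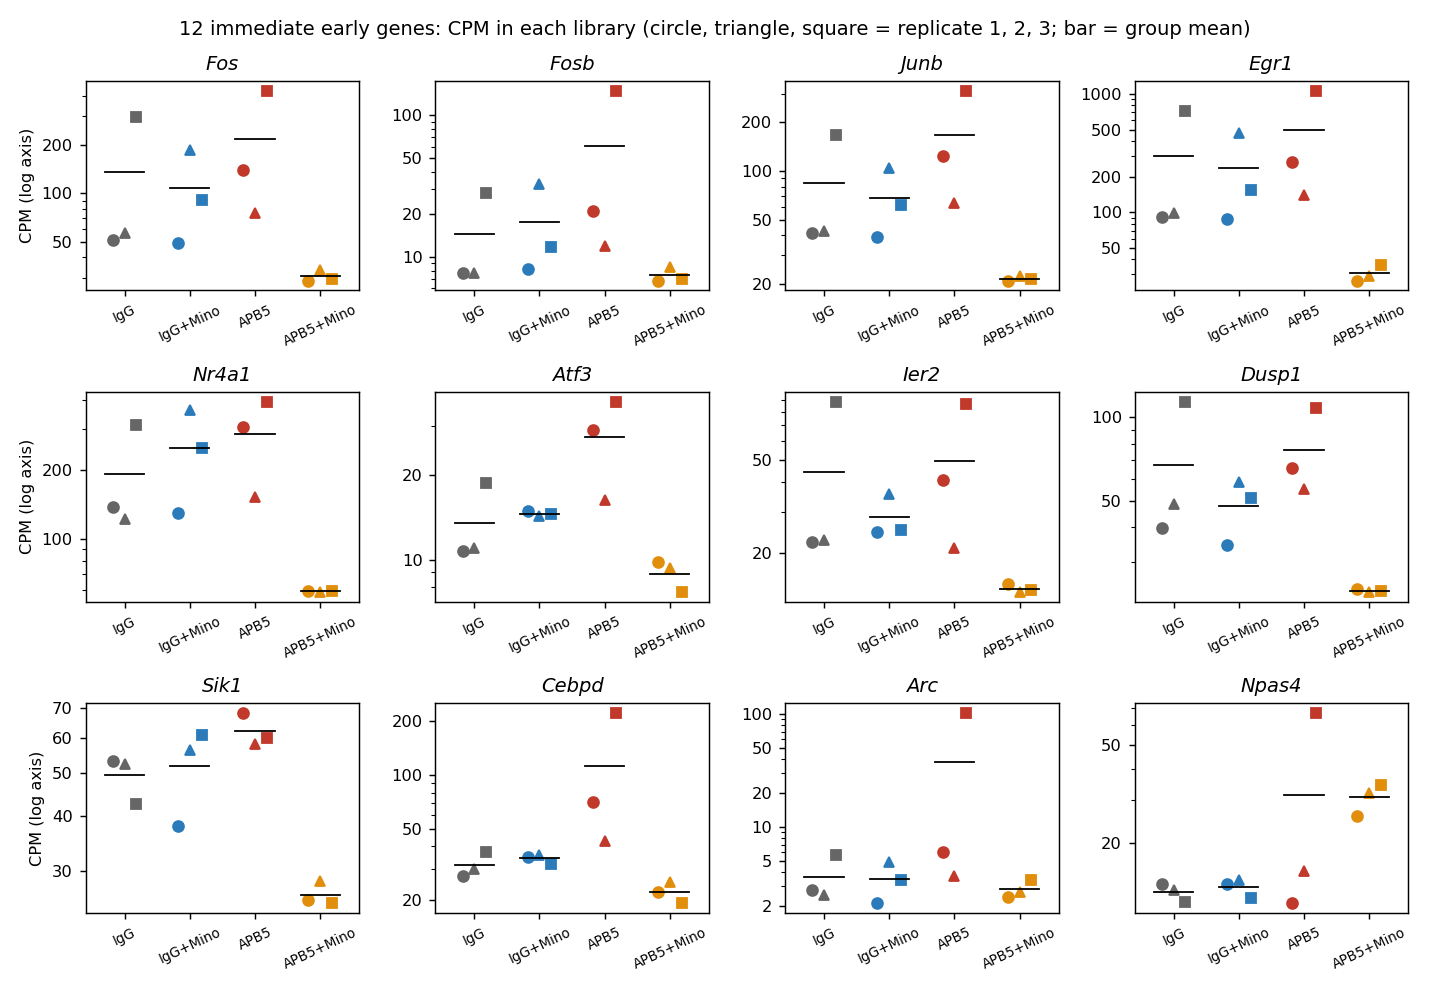
CPM of 12 genes in each library on log axes, by group, with circles, triangles and squares for replicates 1, 2 and 3 and a line at the group mean. In 9 of the 12 panels the orange APB5+Mino points lie below all others; Fosb and Arc overlap, and Npas4 lies above the IgG and IgG+Mino points.

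The regulators act on the signals that induce the group. Dusp1, a phosphatase that inactivates MAP kinases, was at 39.8, 48.5 and 114 CPM in IgG, 34.6, 58.3 and 51.02 in IgG+Mino, 65.8, 54.9 and 108 in APB5 and 23.9, 23.4 and 23.6 in APB5+Mino. Zfp36, or tristetraprolin, which speeds the decay of AU-rich mRNAs, was at 13.99, 19.01 and 43.8 CPM in IgG, 16.3, 20.9 and 21.2 in IgG+Mino, 32.6, 18.98 and 87.1 in APB5 and 7.96, 9.45 and 8.16 in APB5+Mino. Sik1, a kinase that keeps CREB coactivators out of the nucleus, was at 53.2, 52.2 and 42.5 CPM in IgG, 37.9, 56.1 and 60.9 in IgG+Mino, 68.2, 57.9 and 59.98 in APB5 and 25.8, 28.5 and 25.4 in APB5+Mino. All 3 were lowest in APB5+Mino, and for Sik1, unlike the others, IgG 3 was the lowest of its group and APB5 3 lay between the other APB5 libraries. Ier2 was at 22.2, 22.7 and 88.2 CPM in IgG, 24.5, 35.6 and 25.1 in IgG+Mino, 40.98, 21.1 and 86.01 in APB5 and 14.7, 13.7 and 13.9 in APB5+Mino. Gadd45b, a stress sensor, was at 15.97, 15.2 and 25.6 CPM in IgG, 25.5, 22.2 and 22.6 in IgG+Mino, 38.8, 30.3 and 77.6 in APB5 and 15.98, 17.2 and 12.4 in APB5+Mino. Its paralog Gadd45g was at 15.4, 14.9 and 19.02 CPM in IgG, 14.2, 9.296 and 10.04 in IgG+Mino, 12.3, 12.5 and 39.7 in APB5 and 8.79, 8.67 and 8.86 in APB5+Mino. Ier2 and Gadd45g were lowest in APB5+Mino, while Gadd45b overlapped IgG there. Ier3, Ier5 and Btg2 differed less, at 19.5 to 36.2, 18.4 to 27.9 and 93.5 to 203 CPM outside APB5 3, and at 87.2, 47.6 and 216 CPM in it.

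Among the effectors, Arc, a synaptic protein that removes AMPA receptors, was at 2.75, 2.503 and 5.68 CPM in IgG, 2.12, 4.89 and 3.41 in IgG+Mino, 6.06, 3.69 and 103 in APB5 and 2.398, 2.68 and 3.38 in APB5+Mino. Every APB5 library was above APB5+Mino, APB5 2 only narrowly, and the other groups overlapped. Plk2, a polo-like kinase, was at 38.6, 45.9 and 75.7 CPM in IgG, 44.9, 56.3 and 55.1 in IgG+Mino, 77.9, 61.7 and 121 in APB5 and 33.6, 31.1 and 29.4 in APB5+Mino. Plk3 was at 3.97, 3.29 and 3.799 CPM in IgG, 4.43, 3.81 and 4.44 in IgG+Mino, 7.16, 5.07 and 13.3 in APB5 and 2.86, 3.13 and 3.03 in APB5+Mino. Rhob, an endosomal GTPase, was at 98.5, 98.8 and 114 CPM in IgG, 106, 100.4 and 103 in IgG+Mino, 119.7, 103 and 159 in APB5 and 73.4, 68.6 and 66.8 in APB5+Mino. All 3 genes were lowest in APB5+Mino, and for Plk3 every APB5 library was also above IgG and IgG+Mino. Ptgs2, the inducible cyclooxygenase COX-2, was at 0.595, 0.508 and 0.501 CPM in IgG, 0.507, 0.832 and 0.984 in IgG+Mino, 2.44, 0.967 and 17.5 in APB5 and 0.465, 0.391 and 0.357 in APB5+Mino. APB5 was above every IgG library and APB5+Mino below all others, at levels under 1 CPM in every library but APB5 1 and APB5 3. Homer1, a postsynaptic scaffold whose short form is the inducible one, ranged from 21.5 to 42.9 CPM. Gene counts do not separate its forms, and its APB5+Mino libraries, 37.2, 42.9 and 38.4 CPM, were above every IgG and IgG+Mino library.

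APB5 against IgG asked what PDGFRβ blockade alone had changed by day 28. Of the 39 genes, 38 had a positive log2 fold change and 0 passed edgeR's quasi-likelihood test after correction for 20350 genes (Benjamini-Hochberg), where 0% of all genes passed. At an unadjusted P under 0.05, 16 were higher and 0 lower, against 5.22% and 2.01% of all genes. DESeq2 called 4 (Fosl1, Fosl2, Nr4a3 and Myc) and 87 of all 20350 genes. The median was 0.79 on the log2 scale and −0.002 over all genes. In 11 genes the APB5 libraries were all above IgG, where 7.79% of all genes were, and in 0 were they all below, where 7.89% were. The 11 were Fosl1, Fosl2, Gadd45b, Ptgs2, Nr4a3, Plk3, Myc, Cebpd, Nr4a2, Klf10 and Sik1.

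The genes with the smallest P values had low to moderate levels. By edgeR the log2 fold change in APB5 against IgG was 3.91 (SE 0.92, adjusted P = 0.664) for Fosl1, 1.86 (SE 0.46, adjusted P = 0.664) for Fosl2 and 1.39 (SE 0.38, adjusted P = 0.664) for Gadd45b. It was 3.65 (SE 1.04, adjusted P = 0.664) for Ptgs2, 1.92 (SE 0.55, adjusted P = 0.664) for Nr4a3, 1.22 (SE 0.37, adjusted P = 0.664) for Plk3 and 2.63 (SE 0.81, adjusted P = 0.664) for Myc. Cebpd was at 1.86 (SE 0.57, adjusted P = 0.664), Egr2 at 3.87 (SE 1.33, adjusted P = 0.664) and Atf3 at 1.04 (SE 0.35, adjusted P = 0.664). Fos was at 0.71 (SE 0.84, adjusted P = 0.828), Egr1 at 0.74 (SE 0.99, adjusted P = 0.846) and Junb at 1.03 (SE 0.72, adjusted P = 0.723). Nr4a1 was at 0.59 (SE 0.45, adjusted P = 0.744), Sik1 at 0.34 (SE 0.14, adjusted P = 0.664), Dusp1 at 0.20 (SE 0.43, adjusted P = 0.908) and Ier2 at 0.18 (SE 0.67, adjusted P = 0.9499). Arc, Fosb and Npas4, in which APB5 3 alone was far up, were at 3.39 (SE 1.25, adjusted P = 0.664), 2.09 (SE 1.001, adjusted P = 0.664) and 1.33 (SE 0.63, adjusted P = 0.664).

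The size of these differences depended on APB5 3, the library with the high gliosis markers. Without it the median over the 39 genes was 0.27, 29 of 39 were positive and 0 were called, and Fos, Egr1, Ier2 and Dusp1 turned negative at −0.32, −0.56, −0.51 and −0.16. When the log2 level of Xist entered a model of the 12 libraries, 13 were called, all higher, among 999 of 21228 genes called in either direction. Xist counts were 47210 to 91647 in IgG and 20 to 27 in IgG+Mino. The adjustment therefore rests mainly on APB5 3 and APB5+Mino 3 against the other libraries of their groups. Summed microglia markers were 94.0 to 575 CPM in APB5 and 75.1 to 116 in IgG, highest in APB5 3 for 13 of the 14 markers, none at 0 in any library. Their part in the result was not tested.

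Minocycline in APB5 retinas was examined by APB5+Mino against APB5. Of the 39 genes, 38 had a negative log2 fold change, 13 were lower by the call threshold (adjusted P of at most 0.05 and at least 1 on the log2 scale) and 0 were higher. Of all 20281 genes, 0.819% were lower and 0.838% higher by the same rule. By adjusted P alone 15 were lower, with Nr4a2 and Rhob added, and 0 higher, against 2.03% and 2.79% of all genes. The 3 APB5+Mino libraries were below all APB5 libraries in 33 genes, where 22.8% of all genes were, and above them in 0, where 23.5% were. The median was −1.73 against −0.020 over all genes.

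Genes of each family were among the 13. By edgeR Sik1 had the smallest P value at −1.24 (SE 0.11, adjusted P = 0.0417), and Egr1 had the lowest log2 fold change of the called genes at −4.04 (SE 0.78, adjusted P = 0.0471). Of the nuclear receptors Nr4a1 was at −2.29 (SE 0.33, adjusted P = 0.04298) and Nr4a3 at −2.28 (SE 0.43, adjusted P = 0.0461), with Nr4a2 at −0.92 (SE 0.14, adjusted P = 0.0447) under the fold threshold. Of the AP-1 genes Junb was at −2.97 (SE 0.56, adjusted P = 0.0461), Maff at −2.54 (SE 0.47, adjusted P = 0.0461) and Atf3 at −1.63 (SE 0.30, adjusted P = 0.0461). Klf4 and Klf2 were at −2.21 (SE 0.28, adjusted P = 0.04298) and −1.73 (SE 0.24, adjusted P = 0.04298). Among the regulators Dusp1 was at −1.71 (SE 0.25, adjusted P = 0.0433) and Gadd45b at −1.71 (SE 0.36, adjusted P = 0.0493). Csrnp1 was at −1.92 (SE 0.36, adjusted P = 0.0461) and Plk2 at −1.48 (SE 0.25, adjusted P = 0.0461), while Rhob at −0.89 (SE 0.17, adjusted P = 0.0471) passed by adjusted P alone.

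Several genes with the same direction lay just outside the threshold. By edgeR Fos was at −2.85 (SE 0.62, adjusted P = 0.0502) and Zfp36 at −2.46 (SE 0.54, adjusted P = 0.0503). The next were Jund at −1.32 (SE 0.30, adjusted P = 0.0512), Fosl2 at −1.904 (SE 0.44, adjusted P = 0.0518) and Egr2 at −5.898 (SE 1.48, adjusted P = 0.05204). Plk3 was at −1.51 (SE 0.36, adjusted P = 0.0527), Cebpd at −2.37 (SE 0.59, adjusted P = 0.0559), Jun at −1.35 (SE 0.34, adjusted P = 0.0562) and Ier2 at −1.83 (SE 0.47, adjusted P = 0.0574). Fosb and Arc, in which APB5 3 was far above the other APB5 libraries, were at −3.06 (SE 0.94, adjusted P = 0.0745) and −3.75 (SE 1.28, adjusted P = 0.0902). Npas4 did not differ beyond its spread at −0.058 (SE 0.64, adjusted P = 0.954), and Homer1 was the single positive gene at 0.22.

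These calls rest on few libraries. Deviations of same-numbered libraries correlated weakly in this comparison, at 0.119 to 0.169, which does not establish that the numbers pair them. A fit blocked on the replicate number called 0 of all 20281 genes, and the smallest adjusted P of the 39 was 0.0641 by edgeR. None of the 39 was called without APB5 1, APB5+Mino 1, APB5+Mino 2 or APB5+Mino 3 either, where 1, 0, 0 and 0 of all genes were. Without APB5 2, 31 were called, among 1789 of 20832 genes. Without APB5 3, where 923 of 20621 genes were called, 24 were lower and Npas4 was higher at 1.18, with adjusted P = 0.0028 by edgeR, and the median was −1.19. Among the 4 libraries with a low Xist count, a choice made after seeing the data, 23 were lower and Npas4 was higher, with 572 of 20302 genes called. Sums of microglia markers were 35.4 to 40.7 CPM in APB5+Mino against 94.0 to 575 in APB5, with 11 of 14 below all 9 other libraries. Gliosis sums were 243 to 281 against 533 to 4848 CPM, pericyte and smooth muscle sums 74.9 to 80.2 against 132 to 472 CPM, and pigment epithelium sums 34.0 to 58.6 against 75.0 to 531.5 CPM. Endothelial sums were 98.5 to 116 against 170.2 to 189 CPM, with all 8 markers negative and 2 called lower. The part of these markers in the result was not tested.

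**Figure D4:**
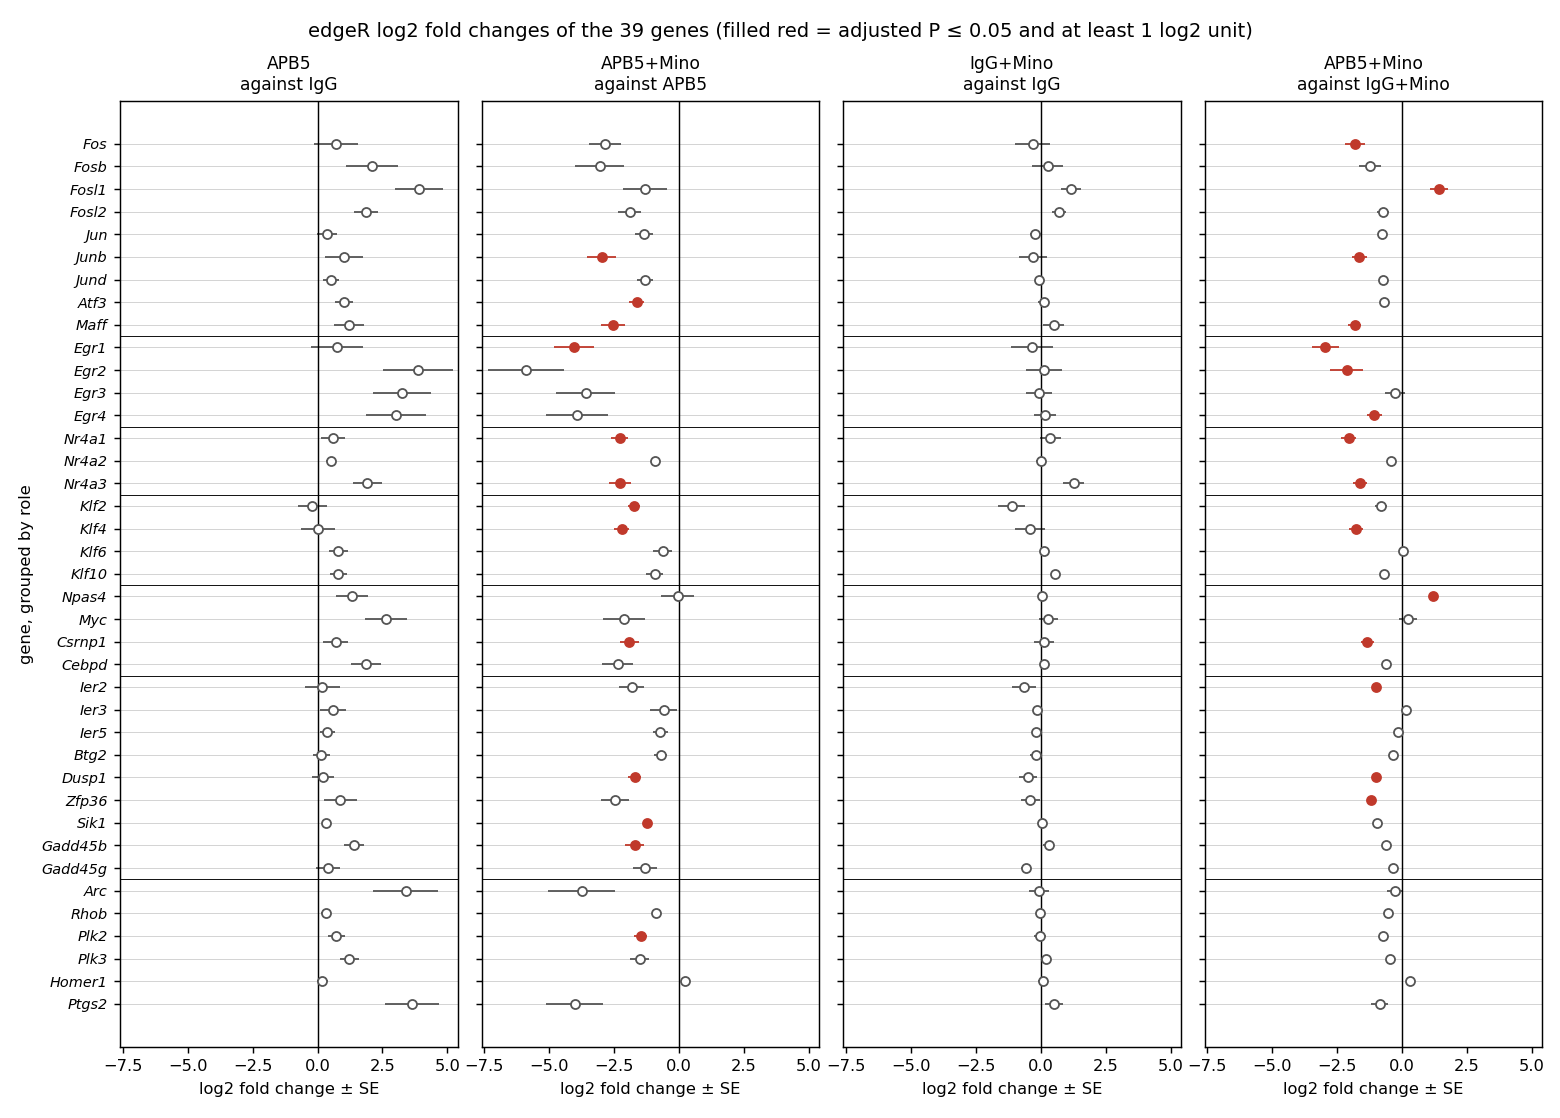
Log2 fold change with its SE for the 39 genes (rows, grouped by role) in 4 comparisons, with filled red points for called genes. Points of APB5 against IgG lie mostly right of 0, those of both APB5+Mino comparisons mostly left, and those of IgG+Mino against IgG around 0.

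IgG+Mino against IgG asked what minocycline changed without blockade. Of the 39 genes 21 were positive and 18 negative, with a median of 0.067 against −0.010 over all genes. Without IgG 3 the median was 0.34 and 32 of the 39 were positive, and without IgG+Mino 2 it was −0.090. By edgeR 0 were called, where 0.0298% of all 20143 genes passed by adjusted P alone. DESeq2 called 0 as well. At an unadjusted P under 0.05, 4 were higher (Klf10, Fosl1, Nr4a3 and Fosl2) and Gadd45g was lower, against 4.98% and 3.39% of all genes. Klf10 was at 0.55 (SE 0.14, adjusted P = 0.585), Fosl1 at 1.17 (SE 0.39, adjusted P = 0.585) and Nr4a3 at 1.27 (SE 0.40, adjusted P = 0.585) by edgeR. Fosl2 was at 0.71 (SE 0.27, adjusted P = 0.585) and Gadd45g at −0.55 (SE 0.19, adjusted P = 0.585). In Klf10, Fosl1 and Nr4a3 the IgG+Mino libraries were all above IgG, where 7.03% of all genes were, and in Gadd45g all below, where 7.35% were.

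The sign of several genes depended on IgG 3. By edgeR Fos was at −0.31 (SE 0.66, adjusted P = 0.899), Egr1 at −0.34 (SE 0.80, adjusted P = 0.9096) and Junb at −0.29 (SE 0.53, adjusted P = 0.882). Arc was at −0.068 (SE 0.37, adjusted P = 0.962), Ier2 at −0.64 (SE 0.47, adjusted P = 0.685) and Dusp1 at −0.49 (SE 0.35, adjusted P = 0.684). Without IgG 3 all 6 were positive, at 0.99, 1.31, 0.70, 0.40, 0.33 and 0.12 in the same order, and 0 of the 39 were called. Nr4a1 was at 0.37 (SE 0.40, adjusted P = 0.785), Fosb at 0.27 (SE 0.59, adjusted P = 0.903) and Atf3 at 0.11 (SE 0.22, adjusted P = 0.8899). Npas4 was at 0.068 (SE 0.15, adjusted P = 0.9003), Cebpd at 0.13 (SE 0.14, adjusted P = 0.793) and Sik1 at 0.067 (SE 0.18, adjusted P = 0.924). Summed blood markers were 258 CPM in IgG 3 and 53.4 and 68.4 in the other IgG libraries, and 13 of 14 microglia markers were highest of the group there. Xist was high in every IgG library and low in every IgG+Mino library, and Y-linked counts were the reverse. Sex as read from these counts and minocycline therefore cannot be told apart within this pair.

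APB5+Mino against IgG+Mino asked what blockade changed under minocycline, and here too most calls among the 39 genes were lower. Of the 39, 33 were negative, 13 were lower by the call threshold and 2 higher, against 0.349% and 0.878% of all 20049 genes. By adjusted P alone 22 were lower and 2 higher, against 3.28% and 4.8%. The APB5+Mino libraries were all below IgG+Mino in 28 genes and all above in 3 (Npas4, Fosl1 and Homer1), where 17.6% and 17.7% of all genes were. The median was −0.74, against −0.009 over all genes. This comparison shares its APB5+Mino libraries with that against APB5, so that the counts of both are not independent.

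Egr1, Egr2 and Nr4a1 had the most negative values of the 39, while Egr3 at −0.28 and Nr4a2 at −0.42 did not pass. By edgeR Egr1 was at −2.96 (SE 0.53, adjusted P = 0.0196), Egr2 at −2.14 (SE 0.63, adjusted P = 0.0455) and Egr4 at −1.07 (SE 0.27, adjusted P = 0.0457). Nr4a1 was at −2.06 (SE 0.30, adjusted P = 0.0125) and Nr4a3 at −1.62 (SE 0.26, adjusted P = 0.0158). Of the AP-1 genes Maff was at −1.83 (SE 0.26, adjusted P = 0.0125), Fos at −1.82 (SE 0.39, adjusted P = 0.0292) and Junb at −1.66 (SE 0.29, adjusted P = 0.0189). Klf4 was at −1.79 (SE 0.27, adjusted P = 0.0125) and Csrnp1 at −1.34 (SE 0.24, adjusted P = 0.0196). Among the regulators Zfp36 was at −1.18 (SE 0.14, adjusted P = 0.0114), Dusp1 at −1.02 (SE 0.16, adjusted P = 0.0163) and Ier2 at −1.01 (SE 0.15, adjusted P = 0.0125). The 2 higher genes were Npas4 at 1.205 (SE 0.13, adjusted P = 0.0114) and Fosl1 at 1.42 (SE 0.35, adjusted P = 0.0394). Exons of Fosl1 overlap those of Ccdc85b, which was at −0.29 with adjusted P = 0.184. In the same comparison by edgeR, Prdx2, the partner of Junb, was at −0.48 with adjusted P = 0.044. Spidr, the partner of Cebpd, was at −0.58 with adjusted P = 0.0776, and Ergic1, the partner of Dusp1, at 0.13 with adjusted P = 0.279. Against APB5 they were at −0.81, −1.38 and 0.054 in the same order, and the part of overlapping reads was not tested.

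A further 9 genes passed the adjusted P but not the fold threshold. By edgeR Sik1 was at −0.95 (SE 0.16, adjusted P = 0.0172), Jund at −0.74 (SE 0.10, adjusted P = 0.0125), Plk2 at −0.73 (SE 0.11, adjusted P = 0.0125) and Atf3 at −0.71 (SE 0.12, adjusted P = 0.0189). Jun was at −0.77 (SE 0.15, adjusted P = 0.0256), Klf10 at −0.68 (SE 0.12, adjusted P = 0.01804) and Cebpd at −0.63 (SE 0.12, adjusted P = 0.0205). Gadd45b was at −0.62 (SE 0.14, adjusted P = 0.03301) and Rhob at −0.56 (SE 0.079, adjusted P = 0.0125). The genes that did not pass included Klf2 at −0.81 (SE 0.24, adjusted P = 0.0641), Fosl2 at −0.74 (SE 0.22, adjusted P = 0.0687), Fosb at −1.24 (SE 0.43, adjusted P = 0.09799) and Arc at −0.29 (SE 0.29, adjusted P = 0.522).

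The size of these differences was steadier than their calls. The median over the 39 genes stayed between −0.90 and −0.67 in every alternative run. The count called among them went from 0 to 18 when 1 library was left out, and over all genes from 0 to 458. None of the 39 was called without IgG+Mino 3, APB5+Mino 2 or APB5+Mino 3, where 5, 0 and 2 of all genes were. Nor was any gene called in a fit of all 12 libraries, with or without Xist as a covariate. Microglia sums were 56.9 to 65.9 CPM in IgG+Mino and 35.4 to 40.7 in APB5+Mino, while gliosis sums overlapped at 258 to 298 and 243 to 281 CPM. Retinal marker sums were 50045 to 55755 and 39354 to 42464 CPM. Their part in the result was not tested.

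**Figure D5:**
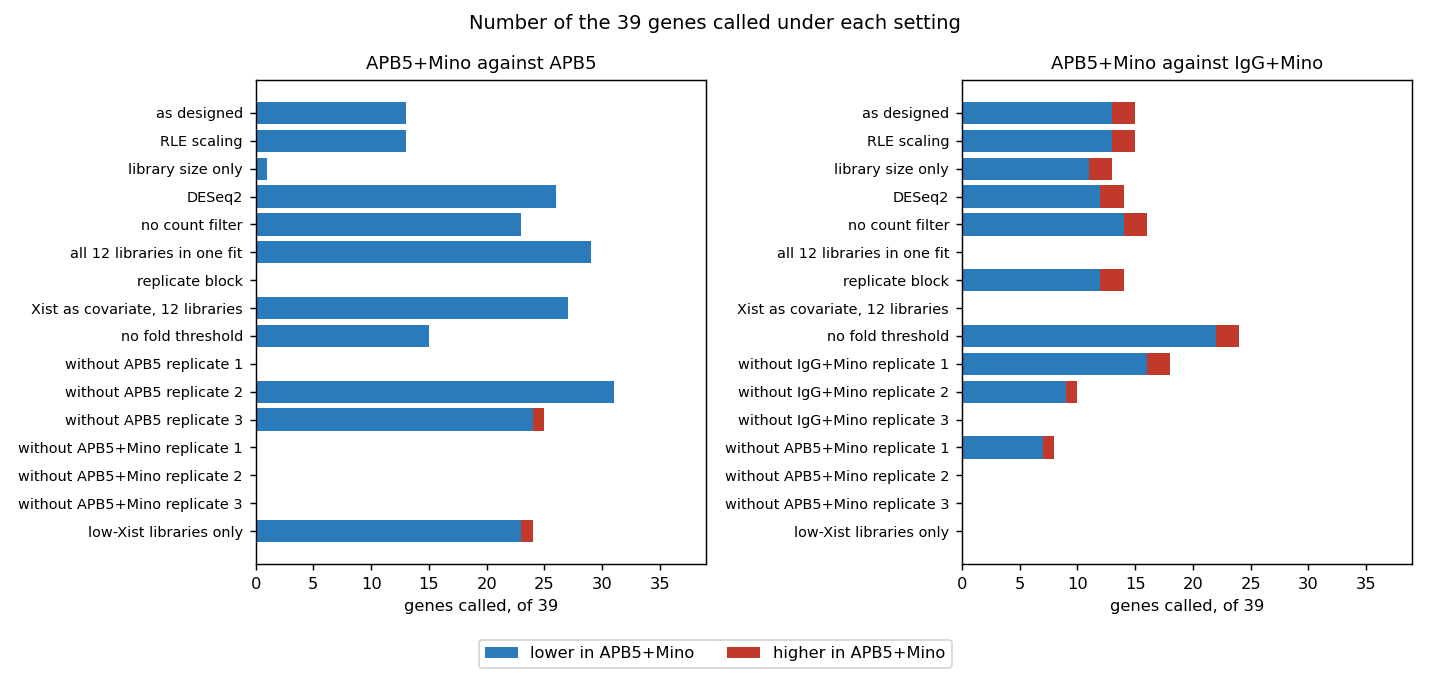
Number of the 39 genes called lower (blue) and higher (red) in APB5+Mino under each setting, for both APB5+Mino comparisons, with no bar where none was called. The counts run from 0 to 31 against APB5 and from 0 to 24 against IgG+Mino.

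The interaction of antibody and minocycline compared the difference between minocycline groups in APB5 retinas with that in IgG retinas. Every IgG library was high in Xist and every IgG+Mino library low, while APB5 3 and APB5+Mino 3 alone were high in their groups. Sex as read from these counts therefore enters the contrast and cannot be told apart from minocycline in its IgG part. All genes but Homer1 had a negative interaction, with a median of −1.79 against −0.024 over 21228 genes. By edgeR 0 of the 39 were called, where 0.0141% of all genes passed by adjusted P alone, and the smallest adjusted P was 0.108, for Sik1. At an unadjusted P under 0.05, 30 were lower and 0 higher, against 9.08% and 8.06% of all genes. DESeq2 called 15 of the 39 and 388 of all 21228 genes. For 8 of the 39 every APB5 library was above every IgG library and every APB5+Mino library below every IgG+Mino library, where 1.14% of all genes were. By edgeR Sik1 was at −1.29 (SE 0.23, adjusted P = 0.108), Nr4a3 at −3.53 (SE 0.66, adjusted P = 0.117) and Fosl2 at −2.596 (SE 0.56, adjusted P = 0.131). Gadd45b was at −2.001 (SE 0.44, adjusted P = 0.131), Atf3 at −1.73 (SE 0.39, adjusted P = 0.131) and Maff at −3.03 (SE 0.70, adjusted P = 0.132).

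Further genes were also negative, with larger P values. By edgeR Nr4a1 was at −2.65 (SE 0.61, adjusted P = 0.132), Rhob at −0.86 (SE 0.20, adjusted P = 0.135), Plk3 at −1.69 (SE 0.41, adjusted P = 0.135) and Klf10 at −1.48 (SE 0.37, adjusted P = 0.144). Ptgs2 was at −4.51 (SE 1.16, adjusted P = 0.144) and Cebpd at −2.48 (SE 0.63, adjusted P = 0.145). Fos was at −2.52 (SE 1.04, adjusted P = 0.253), Egr1 at −3.68 (SE 1.28, adjusted P = 0.204) and Junb at −2.67 (SE 0.87, adjusted P = 0.191). Dusp1 was at −1.201 (SE 0.51, adjusted P = 0.259), Ier2 at −1.17 (SE 0.76, adjusted P = 0.431), Fosb at −3.32 (SE 1.21, adjusted P = 0.218) and Arc at −3.67 (SE 1.35, adjusted P = 0.2204). Npas4 was close to 0 at −0.11 (SE 0.69, adjusted P = 0.946).

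With IgG 3 and APB5 3 both left out, 23 of the 39 had a called negative interaction, Npas4 a positive one of 1.19, and the median was −1.46. In that fit 388 of 21415 genes were called. Those 2 libraries were chosen after their values were seen. They were the highest of their groups for 28 and 35 of the 39 genes, against 42.6% and 40.1% of all genes. Leaving them out therefore lowers the spread by construction. With Xist as a covariate 16 were called, all lower, among 646 of 21228 genes. That adjustment rests mainly on APB5 3 and APB5+Mino 3, the high-Xist libraries of their groups.

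Other genes of the same pathways were taken from lists set by function. Of 25 upstream kinases and transcription factors, such as Srf, Creb1 and the MAP kinases, 0 were called in any of the 4 pairwise comparisons. By edgeR's adjusted P alone, Crtc1 and Rps6ka3 were higher in APB5+Mino than in APB5, at 0.63 (SE 0.10, adjusted P = 0.0447) and 0.59 (SE 0.10, adjusted P = 0.0461). Both were also higher than in IgG+Mino, at 0.42 (SE 0.10, adjusted P = 0.0368) and 0.60 (SE 0.10, adjusted P = 0.0156). Crtc1, a CREB coactivator that SIK kinases restrain, was at 67.4, 72.7 and 80.01 CPM in IgG, 86.3, 106 and 102 in IgG+Mino, 84.5, 88.95 and 78.5 in APB5 and 126, 142 and 127 in APB5+Mino. Mrtfb, a coactivator of serum response factor, was higher than in IgG+Mino at 0.69 (SE 0.14, adjusted P = 0.02604). These 3 genes thus went the opposite way to most of the 39.

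Of 11 tested partner genes, 2 were called lower in APB5+Mino than in APB5, and 1 of them also than in IgG+Mino. Cebpb, a transcription factor paralogous to Cebpd, was at 12.3, 17.5 and 26.4 CPM in IgG, 11.3, 17.2 and 21.8 in IgG+Mino, 41.3, 24.3 and 97.2 in APB5 and 5.62, 6.83 and 5.94 in APB5+Mino. By edgeR Cebpb was at −3.16 (SE 0.51, adjusted P = 0.0447) against APB5 and −1.44 (SE 0.21, adjusted P = 0.0125) against IgG+Mino. Mafk, a small Maf like Maff, was at −1.02 (SE 0.18, adjusted P = 0.0461) and −0.73 (SE 0.12, adjusted P = 0.0163) in the same comparisons.

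Of 20 further rapid genes outside the 39, 17 were negative in each APB5+Mino comparison and 2 were called lower in each. Ccn1, a matricellular target of YAP and serum response factor, was at 17.9, 26.8 and 196 CPM in IgG, 13.9, 55.03 and 34.5 in IgG+Mino, 56.6, 20.9 and 64.6 in APB5 and 6.16, 6.56 and 5.06 in APB5+Mino. By edgeR it was at −3.01 (SE 0.42, adjusted P = 0.04298) against APB5 and −2.53 (SE 0.41, adjusted P = 0.0162) against IgG+Mino. Trib1 was at −1.38 (SE 0.25, adjusted P = 0.0461) against APB5, and Ccn2 at −1.28 (SE 0.18, adjusted P = 0.0125) against IgG+Mino. IgG 3, APB5 1 and APB5 3 were the highest libraries of Ccn1. In APB5 against IgG 17 of the 20 were positive and 0 called, and in IgG+Mino against IgG 10 were positive and 0 called.

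Of 14 later response genes, such as Nptx2, Bdnf and Timp1, all 14 were negative in APB5+Mino against APB5 with Hmox1, a heme-degrading stress enzyme, called at −2.54 (SE 0.54, adjusted P = 0.0494) by edgeR. In APB5+Mino against IgG+Mino 13 of 14 were negative and 0 called. All 14 were highest in APB5 3. In APB5 against IgG all 14 were positive and 0 called, and in IgG+Mino against IgG 6 were positive and 0 called.

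Clock genes did not move one way. Of 16 tested, 9 were positive in each APB5+Mino comparison, 3 were above and 2 below all 9 other libraries in APB5+Mino, and 1 was called. Ciart, a repressor of the clock, was called lower in APB5+Mino at −1.32 (SE 0.12, adjusted P = 0.0417) against APB5 and −1.23 (SE 0.17, adjusted P = 0.0125) against IgG+Mino by edgeR. Ciart was at 47.1, 41.01 and 93.03 CPM in IgG, 45.98, 72.04 and 49.99 in IgG+Mino, 66.1, 56.3 and 55.6 in APB5 and 25.3, 25.6 and 20.9 in APB5+Mino. Per1, which is both a clock and an immediate early gene, was at 270.0, 249 and 146 CPM in IgG, 279, 417 and 379 in IgG+Mino, 321, 332 and 347 in APB5 and 209.9, 248 and 206 in APB5+Mino. IgG 3 thus had the highest Ciart and the lowest Per1 of the 12 libraries, and APB5+Mino the lowest Ciart. The hour of tissue collection is not given in the sources used here, and the part of the clock genes in the results on the 39 was not tested.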

How the data were processed

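Poly-A RNA of mouse retinas was sequenced in 12 libraries, 3 in each of 4 groups. The authors used bcl2fastq 2.20 and the DRAGEN RNA pipeline with a custom mm39 mouse genome and deposited raw counts per gene. The strand setting is not given in the sources used here. The 3 repeated columns of the count table, a further table repeating these counts, and the authors' tables of fold changes, P values and group means were not used. The 39 genes and all gene lists were chosen with earlier results of these data known.

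Groups came from the labels. Each pair of groups was compared with edgeR 4.0.16 (R 4.3.3) on counts, with filterByExpr, TMM scaling, the quasi-likelihood test (prior count 2) and Benjamini-Hochberg adjustment over all genes tested. Calls needed both an adjusted P no larger than 0.05 and a change of 1 or more on the log2 scale. The interaction used all 12 libraries. The code was tested on simulated data. Total counts were 52740545 to 59411044, and 3 counts correspond to 0.0448 to 0.0587 CPM, which covers counting error only. With 3 against 3 libraries an exact two-sided permutation test cannot go below P = 0.1, so none was used.

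Values in every library and, in that comparison, fold changes were given for 12 fixed genes, each called gene and up to 8 further genes per comparison with the smallest unadjusted P under 0.05. Alternatives were RLE scaling, library size only, DESeq2 1.42.0, no filter, all libraries in 1 fit, Xist as a covariate, the replicate number as a block, no fold threshold and leaving out each library. Deviations from group means correlated at 0.119 to 0.169 between same-numbered libraries of APB5 and APB5+Mino and at −0.133 to 0.0112 between different numbers. No label gives a pairing and these weak correlations do not establish one, so that the block was run as an alternative only. Sequences were read from GRCm39 with GENCODE M39.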

Additional observations from a re-analysis of the deposited data

Results flagged for a closer look

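For 8 genes every APB5 library was above every IgG library while every APB5+Mino library was below every IgG+Mino library, where 1.14% of all genes were. Their log2 interaction of antibody and minocycline was −0.93 for Nr4a2, −3.53 for Nr4a3, −1.29 for Sik1, −1.48 for Klf10, −2.00 for Gadd45b, −1.69 for Plk3, −4.51 for Ptgs2 and −2.48 for Cebpd. None passed edgeR's test of the interaction, in which the smallest adjusted P of the 39 genes was 0.108. IgG and IgG+Mino also differ in sex as read from Xist, which the interaction does not separate from minocycline.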

How the results depend on the processing

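Depth limits Egr2 most, with 8, 3 and 6 counts in APB5+Mino. Numbers in brackets are the calls among all genes of the same fit, of 20049 to 35088 tested. In APB5 against IgG, 0 of the 39 genes were called (0), 4 with DESeq2 (87) and 13 with Xist as a covariate (999). With IgG 3 and APB5 3 both left out, 1 was called, Gadd45b (79). In APB5+Mino against APB5, 13 were called (170 higher and 166 lower), and 1, Sik1, with library size only (5). The count was 26 with DESeq2 (1548), 23 with no filter (568) and 29 with all libraries in 1 fit (1623). It was 27 with Xist as a covariate (1734), 0 with the replicate block (0), and 24 with a median of −1.12 among low-Xist libraries (572). In APB5+Mino against IgG+Mino, 15 were called (176 higher and 70 lower), 0 with all libraries in 1 fit (0) and 0 with Xist as a covariate (0). The count was 24 with no fold threshold (1621) and 0 among low-Xist libraries (2). For the interaction the count was 0 (3 by adjusted P alone), 15 with DESeq2 (388) and 16 with Xist as a covariate (646). It was 24 with IgG 3 and APB5 3 both left out (388). With no filter 5 were called, namely Nr4a1, Sik1, Nr4a3, Fosl2 and Gadd45b (34). The median of IgG+Mino against IgG was 0.63 with Xist as a covariate, an adjustment that rests mainly on APB5 3 and APB5+Mino 3. The low-Xist fits and those without both IgG 3 and APB5 3 were chosen after seeing the data, and the cause of these changes was not tested.

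Leaving out 1 library moved the median to 0.27 to 1.24 in APB5 against IgG, −0.090 to 0.34 in IgG+Mino against IgG, −1.96 to −1.19 in APB5+Mino against APB5 and −2.27 to −1.15 for the interaction. Counts called ranged from 0 to 31 in APB5+Mino against APB5 (0 to 1789 of all genes) and from 0 to 18 in APB5+Mino against IgG+Mino (0 to 458). For the interaction they ranged from 0 to 13 (0 to 113). The replicate block changed no count of calls past 1.5 times in the other comparisons, whose lowest same-number correlations were −0.034, −0.13 and −0.019.

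Signs turned as follows. Npas4 in APB5+Mino against APB5 was 0.42 with the replicate block, 0.32 with Xist and 1.09 in low-Xist libraries, and −0.45 to 1.18 with 1 library left out. Its interaction was 0.10 with the block, 1.19 with both libraries left out and −0.50 to 1.10 with 1 left out. In IgG+Mino against IgG, Npas4 was −0.016 and Sik1 −0.026 with library size only, and with Xist as a covariate Sik1 was −0.0012, Fos 0.53, Junb 0.46, Egr1 0.87, Arc 2.51 and Gadd45g 0.29. There, leaving out 1 library gave Fosb −0.54 to 1.18, Atf3 −0.028 to 0.42, Fos −0.95 to 0.99, Junb −0.73 to 0.70, Egr1 −1.31 to 1.31, Arc −0.39 to 0.40, Ier2 −0.96 to 0.33, Dusp1 −0.75 to 0.12, Sik1 −0.071 to 0.24 and Nr4a1 −0.0088 to 0.93. In APB5 against IgG it gave Ier2 −0.51 to 1.13, Dusp1 −0.16 to 0.79, Fos −0.32 to 1.997 and Egr1 −0.56 to 2.37, and in APB5+Mino against IgG+Mino Arc −0.54 to 0.029.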
